A study of Homo sapiens with 4 samples.

Results

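The stretch of chromosome 17 from 34 to 49 Mb (hg19), bands 17q12 to q21, was described from a list of ATAC-seq peaks. ATAC-seq uses the Tn5 transposase to cut and tag open chromatin. The members were chosen by position: every summit of the list in this stretch, without the type I keratin cluster (38.8 to 39.8 Mb) and the HOXB cluster (46.6 to 46.81 Mb). Each line of the list gives a summit, where signal peaks locally, and the start and end of the region around it, and several summits can share 1 region. The rule left 10939 of the 371521 summits and 4893 of the 197823 regions, on 13.79 Mb. The stretch was selected on its density of summits in the same list, so its density and every other value from the list are given as descriptions, with no test.

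The cells were T47D-MTVL, a line derived from T47D luminal breast cancer cells that carries a luciferase reporter driven by the MMTV promoter. They expressed an shRNA against several variants of linker histone H1 (multiH1sh, 2 samples) or a random shRNA (RDsh, 2 samples), and the comparison addressed whether loss of H1 changes how accessible the DNA is. The data analysed here are 1 list deposited with these 4 samples, and it does not say which of them went into it. The list is titled as multiH1sh differential to RDsh, and it does not state how the groups were compared. Its track line names 225sh and RDsh, and taking 225sh to mean the multiH1 knock-down is an assumption from the name. Because no column belongs to a sample, no spread between replicates stands behind any value, and nothing below measures a change between knock-down and control cells.

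Linker histone H1 sits where DNA enters and leaves the nucleosome and helps to fold chromatin into a compact form. The band holds ERBB2, which encodes the HER2 receptor tyrosine kinase and is amplified together with its neighbours in a class of breast tumours, and BRCA1, whose product repairs DNA breaks by homologous recombination. Beside them lie genes of nuclear receptors, of the STAT transcription factors and of the Mediator complex. The gene positions used to read the list are textbook positions on hg19 to the nearest kb and not an annotation deposited with it.

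Promoters of 6 genes of the block are printed to show the sequence under starts that differ in the list. They cover 250 bases before to 50 after the RefSeq start (GRCh38.p14, chromosome 17). Capitals mark the GC box (GGGCGG or CCGCCC) and the CCAAT box (CCAAT or ATTGG), searched on both strands, and neighbouring matches may overlap. MIEN1 lies next to ERBB2 and has a high summit at its start, SP2 and CDC27 have the highest starts among the regulators and among the repair and division genes, BRCA1 and NSF have nearly empty gene bodies behind theirs, and G6PC has no listed summit at its start.
MIEN1 (minus strand): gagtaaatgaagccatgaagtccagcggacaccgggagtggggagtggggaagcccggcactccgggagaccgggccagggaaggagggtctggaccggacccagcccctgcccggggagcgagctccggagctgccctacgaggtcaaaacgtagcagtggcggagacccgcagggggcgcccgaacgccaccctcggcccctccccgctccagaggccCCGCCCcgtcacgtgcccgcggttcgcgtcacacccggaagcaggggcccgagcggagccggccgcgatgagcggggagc
SP2 (plus strand): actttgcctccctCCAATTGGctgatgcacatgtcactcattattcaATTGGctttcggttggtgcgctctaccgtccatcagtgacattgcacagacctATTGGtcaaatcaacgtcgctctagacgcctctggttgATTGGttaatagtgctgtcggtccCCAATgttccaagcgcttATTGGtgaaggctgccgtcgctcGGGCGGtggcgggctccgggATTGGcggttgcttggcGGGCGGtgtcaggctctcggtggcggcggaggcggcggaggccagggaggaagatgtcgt
CDC27 (minus strand): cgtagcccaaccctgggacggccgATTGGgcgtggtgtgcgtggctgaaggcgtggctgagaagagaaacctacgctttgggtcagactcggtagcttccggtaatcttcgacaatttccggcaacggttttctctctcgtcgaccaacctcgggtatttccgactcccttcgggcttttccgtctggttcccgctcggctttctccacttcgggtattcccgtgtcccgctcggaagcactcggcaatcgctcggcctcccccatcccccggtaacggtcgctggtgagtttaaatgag
BRCA1 (minus strand): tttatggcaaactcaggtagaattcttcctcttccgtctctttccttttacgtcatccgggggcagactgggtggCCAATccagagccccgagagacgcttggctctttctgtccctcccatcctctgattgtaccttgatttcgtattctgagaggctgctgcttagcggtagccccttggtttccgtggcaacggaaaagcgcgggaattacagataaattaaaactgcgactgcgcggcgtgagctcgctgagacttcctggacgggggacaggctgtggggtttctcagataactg
NSF (plus strand): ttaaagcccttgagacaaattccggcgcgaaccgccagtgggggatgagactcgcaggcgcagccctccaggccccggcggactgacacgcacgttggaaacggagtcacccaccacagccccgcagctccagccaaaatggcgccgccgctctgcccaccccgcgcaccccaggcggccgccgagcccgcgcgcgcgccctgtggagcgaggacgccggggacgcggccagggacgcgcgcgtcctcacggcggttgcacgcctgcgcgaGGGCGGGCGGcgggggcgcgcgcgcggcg
G6PC (plus strand): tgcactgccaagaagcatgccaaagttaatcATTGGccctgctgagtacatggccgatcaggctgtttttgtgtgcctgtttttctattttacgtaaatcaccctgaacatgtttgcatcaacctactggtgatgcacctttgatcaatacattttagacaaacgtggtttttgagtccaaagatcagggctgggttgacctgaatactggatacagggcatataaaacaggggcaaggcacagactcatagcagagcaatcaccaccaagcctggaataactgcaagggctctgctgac

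A GC box was found in 45% of all 35116 RefSeq promoters of this length and a CCAAT box in 34.6%. SP2 held 8 CCAAT-box and 2 GC-box matches, and NSF held 2 GC boxes in a sequence of 75.7% G and C. G6PC, with 45.7% G and C and 3 CpG dinucleotides, was the poorest of the 6 in both.

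Summits numbered 793 per Mb of the block, and the rest of the list had 120.3, a ratio of 6.59. The block made up 0.459% of the listed span and held 2.94% of the summits (95% Wilson interval 2.89 to 2.999%, counting error only). It had 355 regions per Mb against 64.4, and listed regions covered 15.2% of its length against 2.37% of the rest. The stretch that follows it on the same arm, from 49 to 71 Mb, had 181 summits per Mb. The end of the arm beyond 71 Mb had 1560 summits per Mb and the distal 15 Mb of the long arm of chromosome 9 had 1489, so the 17q12-q21 block had 0.509 and 0.533 times their density. At the edges set by the rule, the last Mb inside the upper end had 1589 summits and the next Mb outside had 131, whereas at the lower end the first Mb inside had 333 and the Mb before it had 240. The summits next to the lower limit lay at 34055852 (13 reads, inside) and 33923745 (10 reads, outside), and those next to the upper limit at 48999528 (11 reads, inside) and 49003020 (13 reads, outside). The list holds only summits of at least 10 reads, so a low count does not show closed chromatin.

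Within the block the summits were spread unevenly, and windows ranged from packed to empty. By Mb the counts ran from 333 and 399 in the first 2 Mb to 912 and 887 in the next 2, which end just beyond ERBB2 and its neighbours. The Mb from 41 to 42, which holds BRCA1, had 583 summits, those from 42 to 43 and 43 to 44 had 1098 and 1198, the Mb from 44 to 45 had 368 and the last had 1589. Of 137 windows of 100 kb outside the left-out clusters, the densest 10% (14 windows with at least 170 summits) held 27.4% of the summits (26.5 to 28.2%). The median window had 62 summits, 50 windows had 100 or more, 18 had fewer than 10 and 4 had none. The window with the most, from 48.6 to 48.7 Mb, had 366 summits in regions that covered 66.7% of it, and it lies over CACNA1G, which encodes a T-type calcium channel. Next came 268 summits from 48.2 to 48.3 Mb, where COL1A1 (type I collagen) lies. The third, from 36.7 to 36.8 Mb at SRCIN1, an inhibitor of the SRC kinase, had regions over 47.3% of its length. The fourth had 237 from 37.8 to 37.9 Mb, which holds ERBB2 and most of its close neighbours. The others of the 10 densest began at 37.3, 48.1, 40.2, 43.3, 39.9 and 36.8 Mb, with 206, 204, 203, 202, 187 and 178 summits. The median fold was 5.98 in the densest 14 windows and 5.65 in the other windows, and summits of 20 reads or more made up 32.9% and 25.6%.

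**Figure D1:**
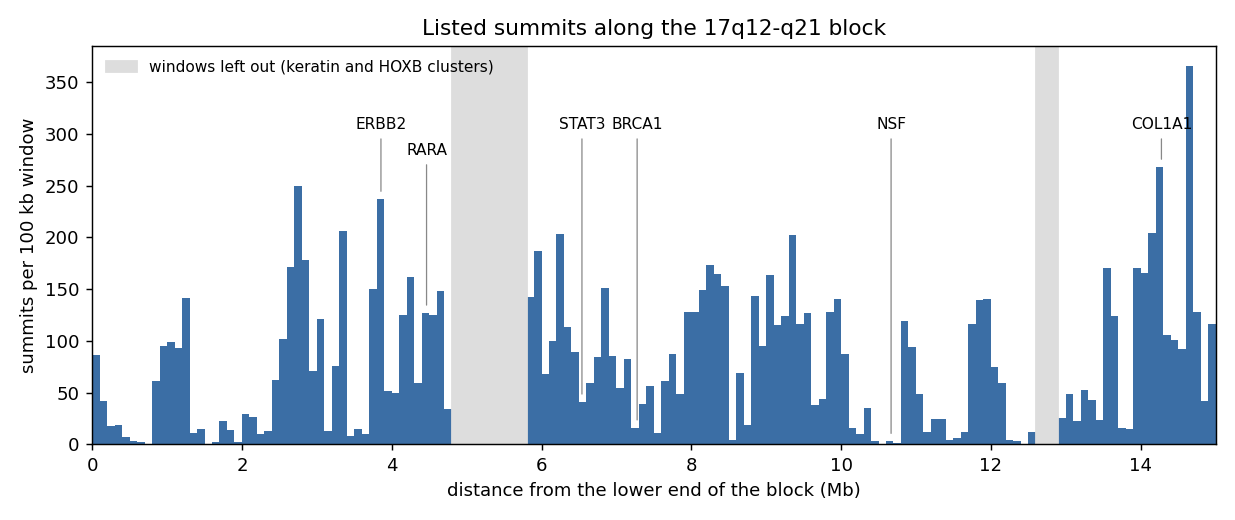
Summits per 100 kb window (bars) against the distance from the lower end of the block in Mb, with the left-out windows in grey and some landmark genes marked. The window of ERBB2 reaches 237 summits and the highest window 366, whereas 4 windows have none.

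The 4 windows without a summit began at 34.7, 35.5, 44.5 and 46.4 Mb. The window at 35.5 Mb lies inside ACACA, which encodes acetyl-CoA carboxylase, and that at 46.4 Mb inside SKAP1, a T cell adaptor gene. The window from 44.7 to 44.8 Mb had 1 summit and lies inside NSF, which encodes an ATPase of vesicle fusion. Those that began at 34.6, 35.6 and 35.9 Mb had 2 each. There were 4 windows with 3 summits, beginning at 34.5, 44.4, 44.6 and 46.3 Mb and tied for the last 2 places among the 10 sparsest. The longest stretch without a listed region ran from 35464634 to 35679430 (214.8 kb, in ACACA), followed by 44450221 to 44657077 (206.9 kb) and 34611856 to 34815184 (203.3 kb). In all 7 such stretches of 100 kb or more added up to 1123 kb. Whether reads could be placed along these stretches and over NSF was not analysed, so a lack of summits there does not show closed chromatin. The genes CACNA1G, SRCIN1 and SKAP1 were not on the lists and were picked after the windows were seen.

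At the median, summits of the block were 1 read higher than those of the rest of the list. The fold is the authors' ratio of the signal at a summit to a background. All 113 distinct pairs of fold and p-value on chromosome 17 with a −log10 p under 290 could be solved for whole reads (to within 1.8e-05 of a read in the block), with 1 background of 2.01 reads for all. The fold is therefore set against a constant and is not a difference from the control cells. The median summit had 16 reads (fold 5.65), against 15 reads (fold 5.32) in the rest of the list. Summits of 20 reads or more made up 27.6% in the block (26.7 to 28.4%) and 26.5% in the rest (26.3 to 26.6%). Those of 50 reads or more made up 0.247% (27 summits, 0.170 to 0.359%) against 1.48% (1.44 to 1.52%). The share of 20 reads or more was 29.8% in the rest of chromosome 17, 35.6% beyond 71 Mb and 36.9% in the distal stretch of chromosome 9, all above the block, and 23.6% from 49 to 71 Mb. The share of 50 reads or more was also low in these parts, at 0.732%, 0.315%, 0.515% and 0.502% in the same order. The 99th percentile of the fold was 12.5 in the block and 21.9 in the rest. Among summits with a −log10 q of 10 or more the order of the medians turned round, at a fold of 7.65 in the block and 7.98 in the rest.

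**Figure D2:**
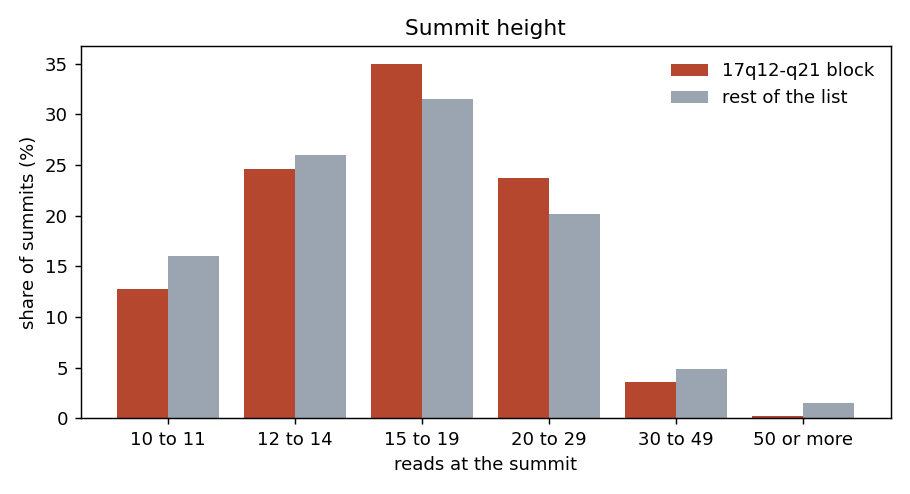
Share of summits (%) by the number of reads at the summit, in the block (red, left bars) and in the rest of the list (grey, right bars). The block has a larger share at 15 to 29 reads and a smaller share at 50 reads or more, 0.247% against 1.48%.

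Of the 75 genes on 6 lists, 74 have their start in the block, since SMARCE1 falls in the left-out keratin cluster. A summit lay within 2 kb of the kilobase that holds the start in 71 of the 74, and one of 20 reads or more in 59 (79.7%, 69.2 to 87.3%). Of all 2758 windows of the same 5 kb length in the block, 59.3% had a summit and 31.8% had one of 20 reads or more. The starts of these genes thus carried high summits more often than windows of the block at large, as a description of the list. The genes were chosen with earlier results of these data known, so the share and its interval do not stand for gene starts in general.

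All 10 genes of the ERBB2 amplicon core had a summit at the start, and in 8 it had 20 reads or more. This share of 80% was close to the 79.7% of all 74 genes. GRB7, an adaptor that binds receptor tyrosine kinases, had the highest, with 45 reads (fold 15.3) at 37894008 in the region chr17:37893677-37894940. MIEN1, next to ERBB2 and known for promoting cell migration, had 41 reads in chr17:37886331-37886999. At the start of ERBB2 itself the highest summit had 22 reads (fold 7.65), in chr17:37856073-37857445, and 12 summits lay within 2 kb of it. STARD3, a cholesterol transfer protein of late endosomes, had 32 reads. TCAP, which encodes the titin cap of muscle, had 33 reads and shared the region chr17:37819762-37824927 with PNMT, the enzyme that makes adrenaline. That region was 5166 bp wide, held 29 summits and was the second widest of the block. NEUROD2, a neuronal transcription factor, had 30 reads and PPP1R1B, a phosphatase inhibitor of dopamine signalling, 27. PGAP3, an enzyme of GPI anchors, and IKZF3, a lymphoid zinc finger factor, had 19 reads each. PNMT had 27 reads. The position used for the start of ERBB2 is 1 of the 2 among all genes whose spacing could not be matched to RefSeq, so its place in this order rests on the textbook position.

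Over the bodies the same group had the highest median density of the 6 lists, 35 summits per 10 kb against 1.0 to 15.8. Single genes of other lists were above 35, such as KAT2A with 44.4, HCRT with 40 and COL1A1 with 38.8. The group is named after an amplicon of tumours, and DNA copy number in these cells was not analysed here. ERBB2 had 69 summits in 27 regions over 30 kb, or 23 per 10 kb, against a mean of 7.93 per 10 kb of the block. Its widest region, chr17:37860865-37862541, was 1677 bp with 8 summits, and its highest summit, at 37879827, had 36 reads. GRB7 had 52 summits per 10 kb and listed regions covered 88.1% of it, and TCAP had 66.7 per 10 kb and was covered throughout. Only IKZF3 stood apart, with 9 summits over 107 kb, or 0.841 per 10 kb.

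Of the 19 transcription and chromatin regulators in the block, every one had a summit at its start. In 17 it had 20 reads or more (89.5%, against 79.7% of all 74 genes). SP2, a zinc finger factor of the SP family, led with 49 reads (fold 16.6) in chr17:45972782-45974239. NR1D1, the circadian repressor REV-ERB alpha, had 43 reads and UBTF, the activator of ribosomal RNA genes, had 40. THRA, the thyroid hormone receptor alpha, had 36, and RARA, the retinoic acid receptor alpha, had 26. The histone acetyltransferase KAT2A had 32, the deacetylase HDAC5 had 34 and the Polycomb methyltransferase EZH1 had 31. Of the homeobox genes, LHX1 and DLX4 had 29 reads each and DLX3 had 36. The lowest were the Mediator subunits MED1 with 13 reads and MED24 with 15.

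Among 7 genes of DNA repair and cell division, 6 had a summit of 20 reads or more at the start (85.7%, against 79.7% of all 74 genes). BRCA1 had 28 reads (fold 9.64) at 41277505 in chr17:41277374-41277696, a region of 323 bp. The 82 kb counted as its body, which include the whole kilobase of the start, held only 2 other summits, of 10 and 14 reads. That is 0.366 summits per 10 kb in all. On this minus-strand gene the summit of 10 reads, at 41277862, lay upstream of the summit of 28 reads. TUBG1, the gamma-tubulin of centrosomes, had 31 reads, CDC6, which helps to load the replicative helicase, 27, TOP2A, the topoisomerase of dividing cells, 22, and SPOP, a ubiquitin ligase adaptor, 21. CDK12, a kinase that sustains transcription of repair genes, had 16. CDC27, a subunit of the anaphase-promoting complex, had the highest start of all 74 genes, with 152 reads (fold 50.9) at 45266547. Over CDC27 lay 4 regions with a summit of 50 reads or more, with highest values of 55, 87, 65 and 152 reads. CDC27 is known to have near-identical copies elsewhere in the genome, so its values are uncertain, and how reads from such copies were placed is not given in the sources used here.

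All 10 signalling genes had a start of 20 reads or more, against 79.7% of all 74 genes. They ranged from 24 reads at STAT3 to 36 at NGFR, the low-affinity nerve growth factor receptor. STAT5A and STAT5B, which carry prolactin and cytokine signals, had 31 and 25 reads, MAP3K14, the NF-kappa-B inducing kinase, had 34 and IGFBP4, which binds insulin-like growth factors, had 27. WNT3 and WNT9B, secreted ligands of development, had 28 each.

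Of 12 genes that most cells use, all had a summit within 2 kb of the start and 10 had one of 20 reads or more (83.3%, against 79.7% of all 74 genes). KPNB1, the importin beta of nuclear import, had 45 reads and ACLY, which makes cytosolic acetyl-CoA, 37. BECN1 (autophagy) and PHB (prohibitin) had 18 reads each. RPL19, a ribosomal protein gene, had no listed summit within 1 kb of its start. It is counted among the 10 through a summit of 29 reads in the region chr17:37349974-37354909, which lies over the start of CACNB1.

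Genes typical of other cell types had fewer high starts than the 74 genes that include them. Of the 16, 8 had 20 reads or more (50%, 28 to 72%, against 79.7% of all 74) and 13 had any summit. Of all 5 kb windows of the block, 31.8% had a summit of 20 reads or more. No summit was listed at the starts of the chemokines CCL3 and CCL4 or of G6PC, the glucose-releasing enzyme of the liver. CCL5 had 13 reads, CCR7, a lymphocyte homing receptor, 15, and the platelet integrins ITGA2B and ITGB3 17 each. The highest of this list were COL1A1 with 45 reads, GFAP of astrocytes with 34, CSF3, a growth factor of granulocytes, with 30 and MAPT, which encodes tau, with 26.

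**Figure D3:**
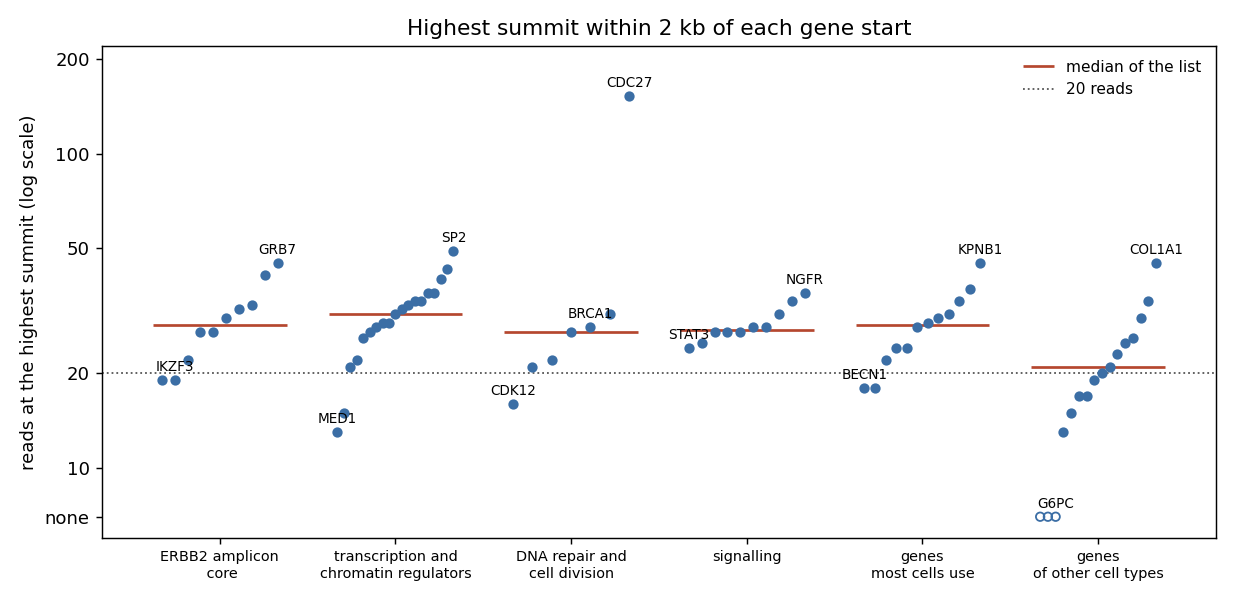
Reads at the highest summit within 2 kb of the start (log scale) for each of 74 genes on 6 lists, each point a gene, with the median over genes that have a summit in red and 20 reads dotted. Open circles at the bottom are the 3 genes with no listed summit, CCL3, CCL4 and G6PC, and CDC27 stands highest with 152 reads.

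RefSeq promoters could be matched for 51 of the 74 starts. The 41 with a summit of 20 reads or more had a median G and C content of 67% (47 to 86.3%) and 30 CpG dinucleotides, and 32 held a GC box (78%). The 10 without such a summit had a median of 52.5% (45.7 to 65%) and 14.5 CpG dinucleotides, and 3 held a GC box (30%). The CCAAT box went the other way, in 18 of the 41 (43.9%) and in 6 of the 10 (60%). Over all RefSeq promoters the medians were 58.7% and 14 CpG dinucleotides. Median base composition thus differed between starts with and without such a summit, with overlapping ranges. No relation to the number of reads within these groups was computed. The part of base composition in the heights was not tested.

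The lists also differed in how densely summits lay over the gene bodies. The median body density was 35 summits per 10 kb in the ERBB2 amplicon core, 15.8 in the regulators, 14.7 in genes of other cell types, 12.9 in signalling genes, 3.89 in genes most cells use and 1.0 in genes of DNA repair and cell division. A density above the mean of the block was found in 9 of 10, 12 of 19, 11 of 16, 7 of 10, 5 of 12 and 1 of 7 genes of these lists. The DNA repair and cell division genes were also long, with a median of 72 kb, against 10 kb in the ERBB2 amplicon core. Of the 20 genes of 50 kb or more in all lists 7 lay above the mean, and of the 54 shorter ones 38 did, so length moved with density and its part was not tested. Of the 5 listed genes over 100 kb, 4 had under 1 summit per 10 kb (AATF, IKZF3, ACACA and NSF), and MAPT had 9.26. RARA, at the 50 kb limit, had 183 summits over 50 kb, or 36.6 per 10 kb, and regions covered 68% of it. NSF had 2 over 167 kb, or 0.12 per 10 kb, of which 1 was the start with 22 reads, and ACACA, which shares its start region with the regulator TADA2A, had 19 over 325 kb, of which 8 lay in the region chr17:35715584-35716728 inside the gene.

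**Figure D4:**
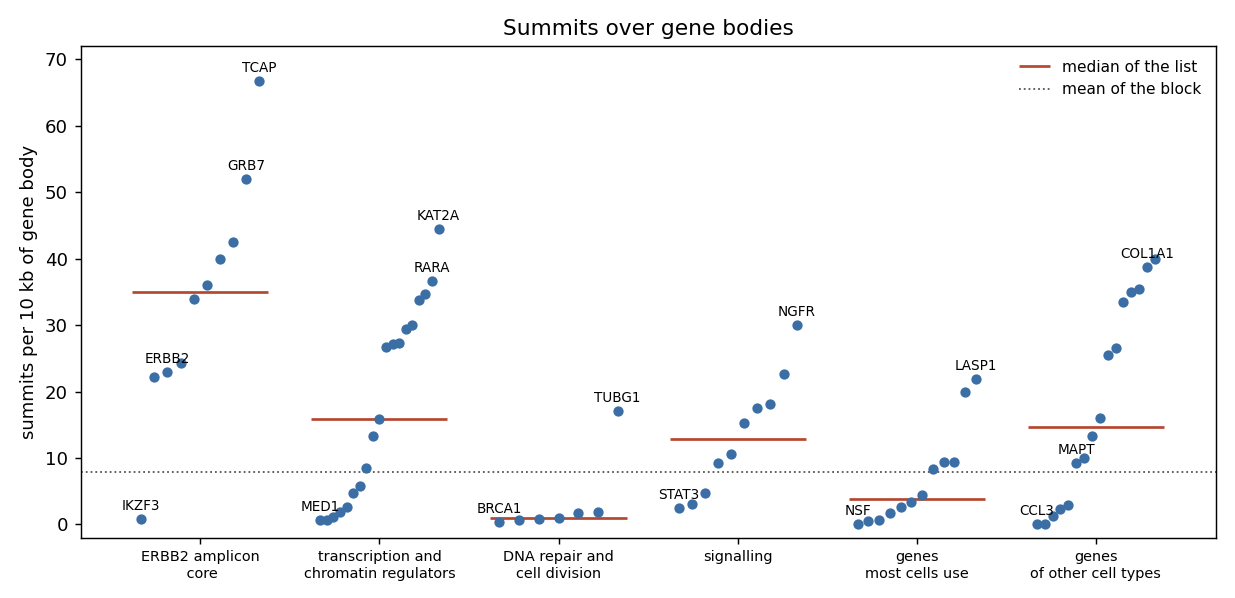
Summits per 10 kb of gene body for the 74 genes, each point a gene, with the median of each list in red and the mean of the block (7.93) dotted. The ERBB2 amplicon core lies above the mean except for IKZF3, and the DNA repair and cell division genes lie below it except for TUBG1.

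The highest summits of the block were few and crowded. The 27 summits of 50 reads or more lay in 10 regions, and 18 of them in 3 regions between the starts of BRCA1 and ETV4, an ETS factor. These regions were chr17:41399045-41402249 (highest summit 342 reads, fold 114.0), chr17:41464614-41467122 (322 reads, fold 107.4) and chr17:41381514-41382633 (238 reads, fold 79.5). All 10 summits with the highest −log10 q of the block, from 262 to 615, came from these 3 regions. Between BRCA1 and ETV4 the RefSeq table (GRCh38.p14) lists 37 genes, of which 15 are small nuclear RNA genes that include RNU2-1, the U2 RNA of the spliceosome, known as a tandem array. Whether the 3 regions lie on these copies was not analysed here, and reads of repeated sequence can be placed at more than 1 copy. Of the other 7 regions, 4 were those over CDC27 and 1 lay in the body of SPOP (chr17:47743034-47743834, 56 reads). Another lay beside the end of KAT2A (chr17:40262336-40265082, 60 reads). Its 60-read summit fell outside the body of KAT2A, where the highest summit had 32 reads. The last was chr17:34136326-34136524 with 50 reads.

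Width and height went together across regions. The 1955 regions under 200 bp (39.96%) held 18.1% of the summits, with a median highest summit of 13 reads. The 102 regions of 2 kb or more (2.09%) held 14.7%, with a median highest summit of 31 reads. A wider region has more positions at which a high value can occur. The median width was 253 bp in the block, against 208 bp in the rest of the list, 280 bp on 17q beyond 71 Mb and 291 bp in the distal stretch of chromosome 9, and 62.8% of the block's regions held a single summit, against 72.03% of the rest. Neighbouring summits of 1 region lay a median of 153 bp apart in the block (quartiles 113 and 211 bp) and 157 bp in the rest (115 and 217 bp). The widest region, chr17:38500652-38507270, lay in RARA, was 6619 bp and held 35 summits, none above 30 reads. The next by width after that of TCAP and PNMT were chr17:43910694-43915737 (5044 bp, 30 summits), across the end of CRHR1, a receptor for the stress hormone CRH, and chr17:37349974-37354909 (4936 bp) at CACNB1. The other 6 of the 10 widest were 4138 to 4806 bp wide, and among them chr17:42334783-42339462 (4680 bp, 31 summits) lay in SLC4A1, the anion exchanger of red blood cells.

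The block had 793 summits per Mb, against 374 in the type I keratin cluster and 776 in the HOXB cluster. Regions covered 15.2% of the block, against 7.06% of the keratin cluster and 14.6% of the HOXB cluster. Summits of 20 reads or more made up 27.6% in the block, against 22.2% in the keratin cluster (18.3 to 26.7%, 374 summits) and 17.8% in the HOXB cluster (12.7 to 24.4%, 163 summits).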

How the data were processed

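Bowtie 1.1.2, hg19 and MACS2 are named in the submitters' processing notes, with no options, and whether replicates were pooled or duplicate reads removed is not stated there. Each sample was made from 75000 cells, per the labels. The deposited narrowPeak list holds, per summit, a fold (ratio of signal to background), −log10 p and −log10 q values, and a score that was not used. A Poisson background was solved from the deposited fold and p of chromosome 17 summits with a −log10 p under 290. The solver was tested on simulated data. Reads at every summit of the list were then calculated from its fold and this 1 background, and rounded. Higher summits and those on other chromosomes were not solved themselves. Total reads per sample are unknown here. Wilson intervals cover counting error only, since reads without molecular identifiers need not come from separate molecules. Those on shares of summits also treat each summit as separate, although summits share regions (2.24 per region in the block). They are therefore too narrow.

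No sample entered a test, since no value belongs to a sample. Positions are hg19, counted from 1. Gene starts and ends are textbook hg19 positions to the nearest kb. RefSeq (GRCh38.p14) was used for names, order and spacing: all 85 genes kept their order, each had a start or end whose spacing to a neighbouring gene matched within 1.5 kb, and 83 had such a start. For ERBB2 the RefSeq start is another, upstream one, and no promoter of it is printed. The members and the gene lists were chosen with earlier results of these data known, and 10 genes were added after their values were seen. For 1 gene of the lists, counted with the others, no value of its own is reported here. The named items are the 10 windows of 100 kb with the most and the fewest summits, the 10 summits highest by −log10 q, the 10 widest regions and genes of the lists. Alternatives counted regions once, merged near regions, raised the thresholds, kept both clusters in, or changed the window or the distance to a start. Python 3.11.15, numpy 2.4.6, scipy 1.17.1, pandas 2.3.3 and matplotlib 3.10.9 were used.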

Additional observations from a re-analysis of the deposited data

How the results depend on the processing

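The ratio of summit density between the block and the rest of the list was 6.59. It was 5.51 with each region counted once, 5.48 with regions within 100 bp merged, 6.36 with the keratin and HOXB clusters kept in, 6.87 at 20 reads or more and 7.12 for folds at or above the median of the list, which by ties keeps more than 50% of the summits. In the same order the block's share of the list (2.94%) was 2.47%, 2.46%, 3.09%, 3.06% and 3.17%. For the densest 10% of windows the share (27.4%) came to 23%, 22.8%, 27.5%, 33.4% and 30.6%. It was 31.96% in windows of 50 kb and 16.6% in windows of 1 Mb. Only 12 windows of 1 Mb lay clear of both clusters, so the last value is that of 1 window and uses less of the block. The difference in median fold, block minus rest, was 0.3325 (5.65 and 5.32) and became 0.665 with each region counted once and −0.3325 at a −log10 q of 10 or more. The difference in median width was 45 bp and became 59 bp at that −log10 q. For each of these shifts the cause was not tested. The count of 59 gene starts with a summit of 20 reads or more within 2 kb was 58 within 1 kb, 62 within 5 kb and 59 for the highest 25% of the block by fold, and with any summit it was 70, 71 and 72 within 1, 2 and 5 kb. No paired analysis was possible because none of the listed values belongs to a single sample, and for the same reason no replicate could be left out. The minimum of 10 reads over a background of 2.01 limits what the list can show.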
